A study of Caenorhabditis elegans with 8 samples.

Results

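The peaks described here are the DAF-16 binding regions that were listed in daf-2(-) worms and had no counterpart in wild-type (WT) worms. They were selected on the deposited peak lists: a peak of the daf-2(-) list was taken when its interval overlapped no interval of the WT list by 1 bp or more. This gave 2015 of the 6859 daf-2(-) peaks, or 29.4% (Wilson 95% interval 28.3 to 30.5), and they are called daf-2(-)-only peaks. The remaining 4844 daf-2(-) peaks, each of which overlapped a WT peak, are called the other daf-2(-) peaks. The study mapped endogenous DAF-16 by chromatin immunoprecipitation and sequencing (ChIP-seq) with a polyclonal antibody that recognises all isoforms, in mixed-stage whole Caenorhabditis elegans fed E. coli OP50 at 20 °C. The 4 strains were daf-2(-), which carries the e1370 allele of the insulin/IGF-1 receptor gene, daf-16(-);daf-2(-), which carries mgDf50 in addition, daf-16(-), which carries mgDf50 alone, and WT (N2 Bristol). From each strain, pooled chromatin gave 1 ChIP and 1 input library, 8 in all, and the daf-2(-) and WT peak lists were used here.

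In C. elegans, insulin-like peptides act through the receptor DAF-2 and the kinases AGE-1, PDK-1 and AKT-1, and this signal keeps the FOXO factor DAF-16 in the cytoplasm. When the receptor is weakened, as by e1370, DAF-16 enters the nucleus and binds near genes of stress resistance, metabolism, immunity and dauer formation. DAF-16 also binds chromatin in well-fed WT worms, so the peaks seen in daf-2(-) alone are a subset of its binding under low insulin signalling.

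Several limits bear on the word "only". Strain and library coincide and no replicate library exists, so no difference between strains can be set against a spread between replicates, and every interval given covers counting error within a library. As the study describes its lists, daf-2(-) peaks that overlapped a double-mutant peak had been dropped, and so had WT peaks that overlapped a daf-16(-) peak. A WT peak may therefore be missing because it was removed, and such removals were not analysed here. Whole worms of all stages were used, so fewer cells with a bound site and less binding per cell cannot be told apart. The lists show tags inside peaks and not the total reads of a library. Positions are those of the WS230 genome as deposited.

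Most daf-2(-)-only peaks were low. The height of the summit, the largest number of tags piled up over a base of the peak, had a median of 42 (95% interval 42 to 43, quartiles 35 and 53) in the daf-2(-)-only peaks and of 66 (65 to 67, quartiles 47 and 98) in the other daf-2(-) peaks. The ratio of these medians was 0.636. The daf-2(-)-only peaks held a median of 76 tags over 759 bp, and the other daf-2(-) peaks 127 tags over 875 bp. Median fold enrichment, the summit over the local background of the input, was 5.56 in the daf-2(-)-only peaks and 8.50 in the other daf-2(-) peaks. The median false discovery rate was 0.08% (upper quartile 0.13%) in the daf-2(-)-only peaks and 0% (upper quartile 0.06%) in the other daf-2(-) peaks. Its highest value was 0.15% in both groups. Together the daf-2(-)-only peaks covered 1.68 Mb with 214556 tags, which is 20.4% of the tags and 25.3% of the length of the daf-2(-) list. They had 128 tags per kb against 169 in the other daf-2(-) peaks. These values come from the library that the rule used, so the difference in height is a description with no test.

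**Figure D1:**
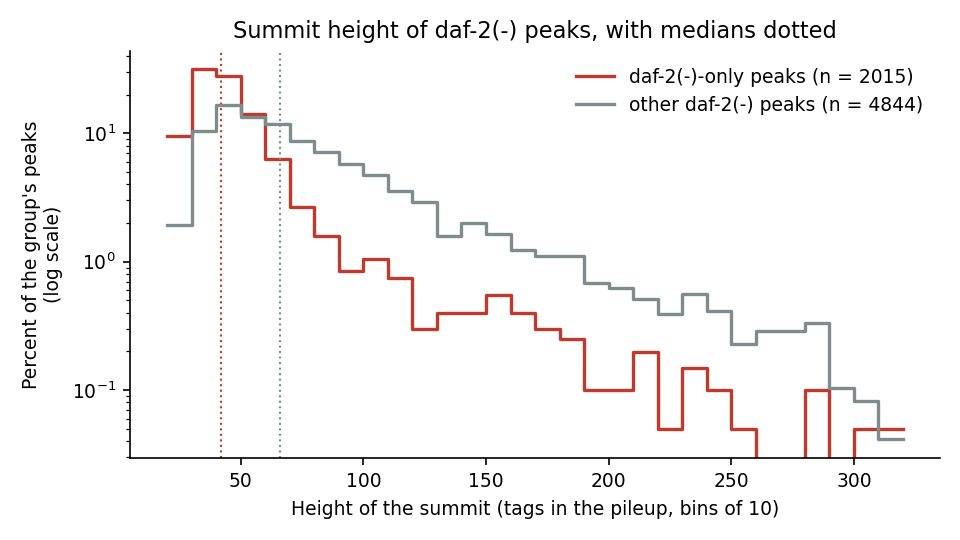
Percent of peaks in bins of 10 by height of the summit (x axis, tags in the pileup; y axis, percent of each group's peaks on a log scale) for the 2015 daf-2(-)-only peaks and the 4844 other daf-2(-) peaks, with medians of 42 and 66 dotted. The daf-2(-)-only peaks are concentrated at low heights. Their highest value, 316, is that of rrn-3.1, which has a local background of 106, and the next is 302 at sor-1. The highest value of the other daf-2(-) peaks is 316.

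The share of daf-2(-) peaks without a WT partner depended on height, and not evenly. It was 58.0% (828 of 1428) at heights below 40, 37.1% (851 of 2296) from 40 to 59 and 12.4% (229 of 1845) from 60 to 99. It was 7.49% (95% interval 5.84 to 9.57, 58 of 774) from 100 to 149 and 9.5% (7.26 to 12.3, 49 of 516) at 150 or more, and these last intervals overlap. The lowest pair of classes held 41.1% and 42.2% of all daf-2(-)-only peaks, while 107 of them had a height of 100 or more. The lists had unlike limits: the FDR reached at most 0.15% in the daf-2(-) list and passed 1% in the WT list. The heights of the WT list as a whole were not described here. What these limits contribute to the shares of the low classes was not tested.

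The tall daf-2(-)-only peaks were long. The 107 peaks of height 100 or more had a median length of 1374 bp (95% interval 1159 to 1585), against 1008 bp (988 to 1034) in the 1183 other daf-2(-) peaks of that height. Of the 107, 27 (25.2%, 18 to 34.2) were 2 kb or longer, against 133 (11.2%, 9.57 to 13.2) of the other tall peaks. Below a height of 100 the order was the opposite: the daf-2(-)-only peaks had a median length of 753 bp (748 to 759) and the other daf-2(-) peaks 841 bp (835 to 846). The tall daf-2(-)-only peaks also lay beside WT peaks more often. A WT peak lay within 500 bp of 37 of the 107 (34.6%, 26.2 to 44.0) and of 261 of the 1908 lower ones (13.7%, 12.2 to 15.3). The neighbouring WT peak overlapped another daf-2(-) peak for 35 of these 37 (94.6%, 82.3 to 98.5) and likewise for 240 of the 261 (92%, 88 to 94.7). Whether such regions were divided differently in the lists was not tested. The height limit of 100 was chosen after the values were seen.

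**Figure D2:**
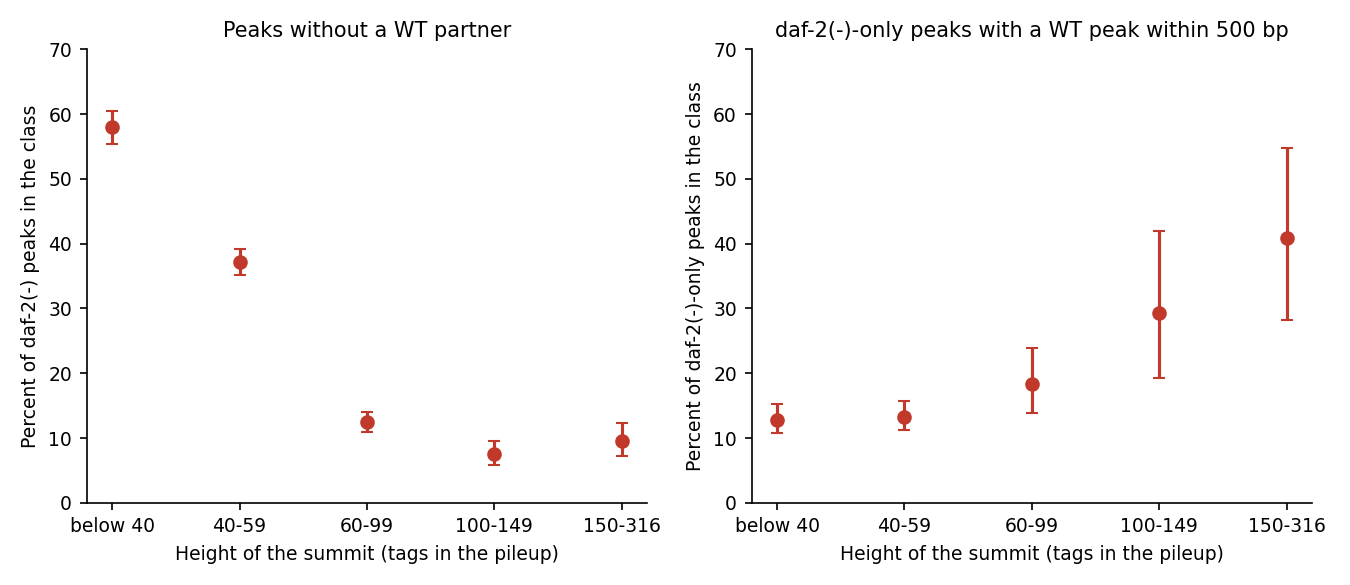
Left, percent of all daf-2(-) peaks in each class of summit height that had no WT partner; right, percent of the daf-2(-)-only peaks in each class with a WT peak within 500 bp. Points are shares and bars Wilson 95% intervals. The left share is 58.0% below 40 and 9.5% at 150 or more, and the right share is 12.8% below 40 and 40.8% at 150 or more.

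Over all daf-2(-)-only peaks, the nearest WT peak was a median of 3907 bp away (95% interval 3526 to 4279, quartiles 970.5 and 11138, highest 143725). It lay within 200 bp of 120 peaks (5.96%), within 500 bp of 298 (14.8%) and within 2 kb of 731 (36.3%). It lay farther than 10 kb from 552 peaks (27.4%). At the edge of the rule, the peak nearest to a WT peak without touching it was upstream of Y111B2A.12, with 3 bp between them. The peak upstream of crml-1, a homologue of the actin regulator CARMIL, followed with 11 bp, and that upstream of mop-25.1, a homologue of the kinase scaffold MO25, with 18 bp. Their heights were 289, 29 and 32. Just outside the rule, the other daf-2(-) peaks with the smallest overlaps lay upstream of unc-43, which encodes the kinase CaMKII (3 bp, height 45), upstream of the non-coding F42H10.13 (5 bp, height 56) and upstream of pde-2, a phosphodiesterase gene (9 bp, height 24).

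**Figure D3:**
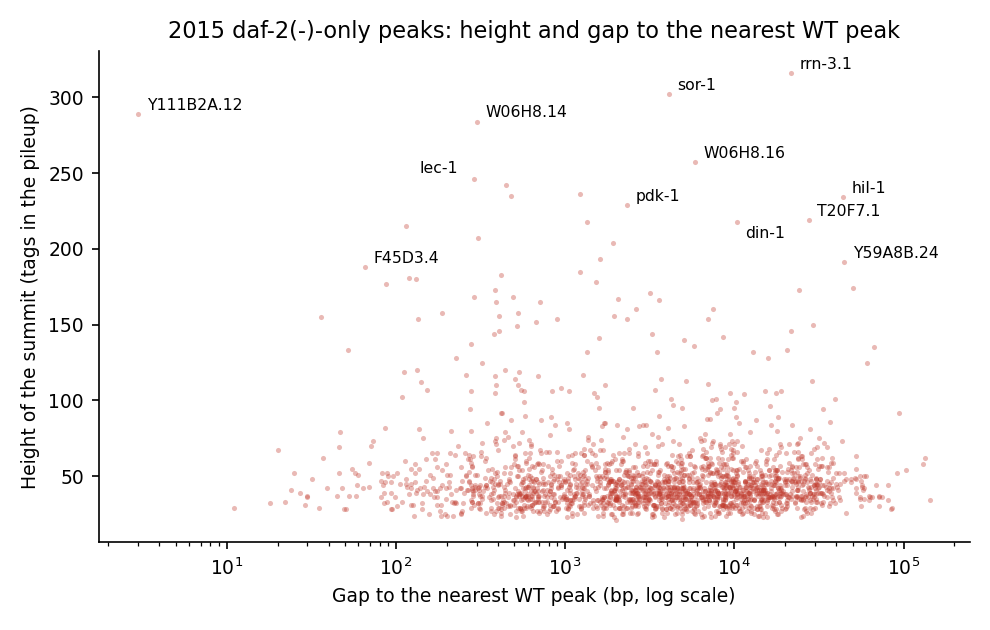
Height of the summit (y axis, tags in the pileup) against the gap to the nearest WT peak (x axis, bp, log scale) for each of the 2015 daf-2(-)-only peaks, with 12 of the 20 tallest named. The named peaks lie from 3 bp (Y111B2A.12) to 44180 bp (hil-1) and 44638 bp (Y59A8B.24) from a WT peak.

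The tallest daf-2(-)-only peak was of a kind of its own. It lay in rrn-3.1 (WBGene00004622, chromosome I, 15064007 to 15067651), a gene of the large ribosomal RNA. It had a height of 316 and 6616 tags (exact Poisson 95% interval 6458 to 6777), or 1815 tags per kb, and a fold enrichment of 2.99. Its local background, height divided by fold enrichment, was 106, and the next highest background among the daf-2(-)-only peaks was 20.7 at B0403.6, against a median of 7.30. This peak alone held 3.08% of the tags of the daf-2(-)-only peaks, and without it they had 124 tags per kb. It was the only peak of either group assigned to a ribosomal RNA gene. What repeated sequence contributes to it was not tested.

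The next of the 20 tallest, which ranged in height from 188 to 316, combined high summits with a low background. At sor-1 (WBGene00023405, chromosome III, 8416804 to 8418311), a gene needed to keep Hox genes silent, the peak lay within the gene 1330 bp from the transcription start site (TSS), with a height of 302, 1124 tags (1059 to 1192) and a fold enrichment of 40.2. The WT peak closest to it was 4090 bp away at ZK353.9. Upstream of Y111B2A.12 (WBGene00013735, chromosome III, 12612228 to 12616447) a region of 4220 bp had a height of 289, and the WT peak 3 bp from it had a height of 306 in its own list. At this gene a tall peak was thus listed in both strains, in neighbouring intervals.

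On chromosome V, a pair of tall peaks lay near the non-coding genes W06H8.14 (6227117 to 6231197, height 284, 1385 tags) and W06H8.16 (6224054 to 6225617, height 257, 635 tags). The WT peak nearest to both, at K08B12.10, had a height of 92 and was 301 bp from the first and 5881 bp from the second. At lec-1 (WBGene00002264, chromosome II, 13194857 to 13195879), which encodes a galectin, the peak was centred 181 bp upstream of the TSS with a height of 246 and 386 tags (348 to 426). A lower WT peak of the same gene, height 98, lay 288 bp away. The longest of the 20, at 7459 bp, was upstream of mnk-1 (chromosome II, 10547142 to 10554600), which encodes a kinase that acts on the translation factor eIF4E, with a height of 235 and 1942 tags.

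Of these 20 peaks, 8 had a WT peak within 500 bp and 5 had none within 10 kb. The centres of 9 lay within 0.5 kb upstream of their TSS, 7 were 2 kb or longer, and 13 were assigned to protein-coding genes. The other daf-2(-)-only peaks of this rank were at Y48B6A.21 (height 242), F20D1.3 (236), F44E5.14 (218), lfi-1 (215), linc-143 (207), F58A3.6 (204), gcy-28 (193) and F45D3.4 (188). Among them gcy-28 encodes a receptor guanylyl cyclase and linc-143 is a long non-coding RNA. At linc-143 the WT list had a peak of height 202 at 305 bp, and at F45D3.4 one of height 90 at 66 bp.

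The daf-2(-)-only peaks that were both tall and far from any WT peak formed a smaller group. A count of 20 of the 107 had no WT peak within 10 kb, and this limit too was set with the values in view. After rrn-3.1, the tallest was at hil-1 (WBGene00001852, chromosome V), which encodes a linker histone of the H1 family, with a height of 234, 981 bp upstream of the TSS and 44180 bp from the nearest WT peak. T20F7.1 on chromosome X (16872078 to 16873056) had a height of 219 and a fold enrichment of 27.4, 359 bp upstream of the TSS and 27594 bp from a WT peak. At din-1 (WBGene00008549, chromosome II, 11617170 to 11622043), which encodes a corepressor of the steroid receptor DAF-12, a region of 4874 bp at the TSS had a height of 218 and 1417 tags (1344 to 1493). A WT peak of the same gene lay 10340 bp away with a height of 254. Y59A8B.24 had a height of 191 and T22F3.3 a height of 174, both on chromosome V.

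Lower in this group were genes of varied cellular roles. The peak at atx-2, the homologue of ataxin-2, had a height of 146, that at djr-1.2, of the DJ-1 family of glyoxalases, 135, and that at ain-1, a protein of the microRNA silencing complex, 133. The peak at vps-25, a subunit of the endosomal sorting complex ESCRT-II, had a height of 125 and lay 106 bp upstream of the TSS, 60438 bp from any WT peak. At atg-16.1, an autophagy gene, it had a height of 106 at 48 bp from the TSS.

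Genes of the insulin pathway carried daf-2(-)-only peaks, most of them low. Of 19 genes of the pathway, 8 had a daf-2(-) peak and 5 had a daf-2(-)-only peak, namely pdk-1, skn-1, ist-1, daf-2 and daf-16. These 8 genes had 17 daf-2(-) peaks, of which 8 were daf-2(-)-only, or 47.1% (26.2 to 69.0), an interval that holds the 29.4% of all daf-2(-) peaks. The exception in height was pdk-1 (WBGene00003965, chromosome X, 1319165 to 1320421), whose kinase activates AKT. Its peak was centred 1560 bp upstream of the TSS and had a height of 229, 705 tags (654 to 759) and a fold enrichment of 31.4. The WT peak of pdk-1, of height 143, lay 2334 bp away, and the other daf-2(-) peak of the gene, which had a WT partner, had a height of 81. At skn-1, the Nrf homologue that acts beside DAF-16 in stress resistance, a peak of height 53 lay 107 bp upstream of the TSS. At ist-1, the insulin receptor substrate homologue, the height was 38, and at daf-2 itself it was 36, 1268 bp upstream.

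At daf-16 the 4 daf-2(-)-only peaks (chromosome I, between 10761741 and 10772135) had heights of 29, 34, 37 and 22 and fold enrichments of 3.74, 4.38, 4.58 and 3.02. All were below the median height of 42. The allele mgDf50 is a deletion within daf-16, and the double mutant that served to remove unspecific peaks carries it, so specificity at this locus cannot be judged from that strain. The dauer list, the TGF-beta and steroid hormone pathways that decide on larval arrest, had 22 daf-2(-) peaks in 7 of its 13 genes, of which 3 (13.6%, 4.75 to 33.3) were daf-2(-)-only. These were the peak of din-1 given above, a low one within din-1 (height 34), and a peak of height 128 with 383 tags that lay 623 bp upstream of daf-14, a SMAD gene, 228 bp from a WT peak of height 112.

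The lists of stress resistance, immunity and detoxification genes had shares of daf-2(-)-only peaks whose intervals held the 29.4% of all daf-2(-) peaks. At sod-5 (chromosome II, 4417333 to 4417925), a cytosolic copper/zinc superoxide dismutase gene, the peak lay 54 bp upstream of the TSS with a height of 62 and a fold enrichment of 8.50, 37718 bp from any WT peak. At ctl-3, a catalase gene, it had a height of 70, 922 bp upstream. These were the 2 daf-2(-)-only peaks among 7 daf-2(-) peaks of superoxide dismutase, catalase and peroxiredoxin genes (28.6%, 8.22 to 64.1). At lys-7, a lysozyme gene, the peak lay 164 bp upstream with a height of 53 and 82 tags (65.2 to 102). At cnc-11, of the caenacin antimicrobial peptides, the height was 61 and at spp-11, a saposin-like gene, 51, among 4 daf-2(-)-only peaks of 13 in this list (30.8%, 12.7 to 57.6). Heat shock and chaperone genes had 3 daf-2(-)-only peaks of 18 (16.7%, 5.84 to 39.2), with heights from 40 to 51, among them hsp-16.49. Detoxification genes of the cytochrome P450, UGT and GST families had 13 of 51 (25.5%, 15.5 to 38.9), led by ugt-50 with a height of 107.

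Fat metabolism and yolk genes had 17 daf-2(-)-only peaks of 59 (28.8%, 18.8 to 41.4) in 13 genes, led by fat-5, a desaturase gene, with a height of 87 at 285 bp upstream of the TSS. They included pod-2, which encodes acetyl-CoA carboxylase, lbp-3, a lipid-binding protein gene, and far-7, of the fatty acid and retinol binding family, with a height of 42. Sugar and central carbon metabolism had 3 of 30 (10%, 3.46 to 25.6), at mdh-2 (height 43) and at pyk-1 (37 and 36). That interval lies below 29.4%. The other daf-2(-) peaks of these genes were tall, with a median height of 127.

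Among transcription factors, differences between families were not tested. Nuclear hormone receptor genes had 25 daf-2(-)-only peaks of 133 (18.8%, 13.1 to 26.3), also below 29.4%, in 23 genes. Their daf-2(-)-only peaks were low, with a median height of 38 and a highest value of 84 at nhr-237. Of the 23 genes, 7 also had a WT peak, beside 22.0% of all 1851 genes with a daf-2(-)-only peak. The bHLH and bZIP factors had 7 of 43 (16.3%, 8.12 to 30). This family held the tall peaks at cebp-1 (chromosome X, 1453593 to 1455095, height 185, 344 bp upstream), a C/EBP-like factor of axon regeneration, and at hlh-11 (chromosome III, 9618743 to 9621470, height 177, 2037 bp upstream). The WT peak of hlh-11 lay 87 bp away and had a height of 54. The homeobox list had 10 of 27 (37.0%, 21.5 to 55.8), with unc-62 highest at 72, and GATA and forkhead factors 7 of 15 (46.7%, 24.8 to 69.9), of which 4 were those of daf-16.

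Sensory and neuronal gene lists had few daf-2(-) peaks, and each interval held 29.4%. Neuropeptide and amine receptor genes had 2 daf-2(-)-only peaks of 11 (18.2%, 5.14 to 47.7), at dmsr-6 (height 49) and ser-1 (26). Chemoreceptor genes had 10 daf-2(-)-only peaks of 22 (45.5%, 26.9 to 65.3), each in another gene and none in a gene with a WT peak, with heights from 32 to 49. Ligand-gated and potassium channel genes had 8 of 18 (44.4%, 24.6 to 66.3), also in 8 genes without a WT peak, led by lgc-26 with a height of 71 on a raised background of 20.4. Most genes with a daf-2(-)-only peak had no WT peak, which the rule favours: 408 of all 1851 such genes (22.0%) also had one. F-box, MATH and BTB genes, which include many adaptors of protein degradation, had 12 of 29 (41.4%, 25.5 to 59.3). Hedgehog-like genes had 7 of 15 (46.7%, 24.8 to 69.9). Histone genes had 2 of 11, hil-1 and his-71, an H3.3 gene with a height of 110, and both were above the median of 57.0 of the other daf-2(-) histone peaks. Of 26 lists with 10 or more daf-2(-) peaks, the interval held 29.4% in 24 and lay below it in 2, and it lay above it in 0. The lists are not independent, since genes such as daf-16 and skn-1 stand in more than 1.

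**Figure D4:**
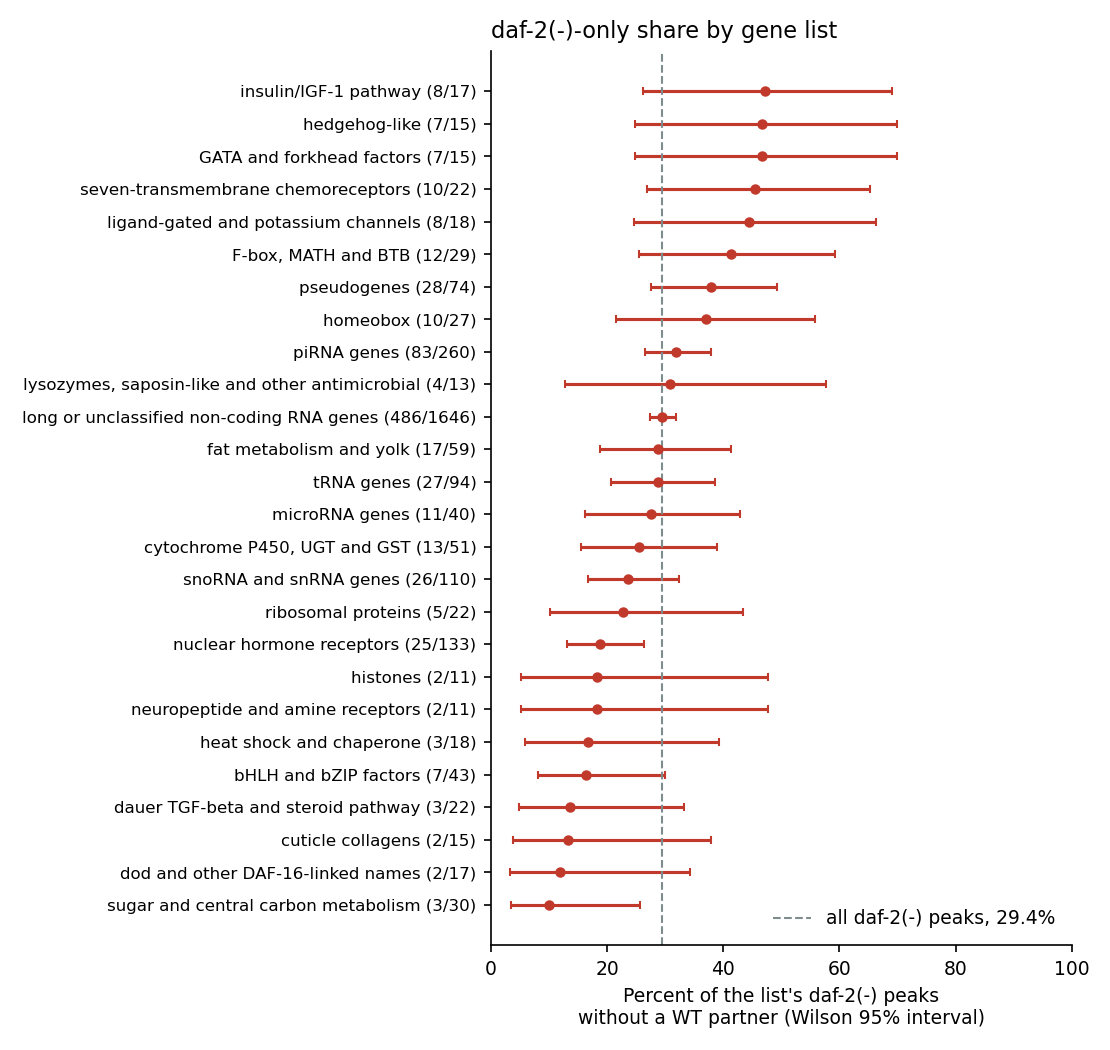
Percent of the daf-2(-) peaks of each gene list that had no WT partner (x axis), for the 26 lists (y axis) with 10 or more daf-2(-) peaks; points are shares, bars are Wilson 95% intervals, and counts stand in brackets. The dashed line is the 29.4% of all daf-2(-) peaks, which lies within 24 of the 26 intervals and above those of the nuclear hormone receptors and of sugar and central carbon metabolism.

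By gene type the daf-2(-)-only peaks resembled the rest of the list. A RefSeq type was found for 1979 of the 2015 peaks (98.2%), and 1309 of these (66.1%, 64.0 to 68.2) were assigned to 1186 protein-coding genes, against 67.2% (65.9 to 68.5) of the other daf-2(-) peaks. Unclassified non-coding RNA genes took 23.5% and 23.0% in the daf-2(-)-only and the other daf-2(-) peaks. The piRNA genes, whose short RNAs silence foreign sequence in the germ line, took 4.19% and 3.70%, and tRNA genes 1.36% and 1.4%. Pseudogenes had the largest share of daf-2(-)-only peaks among matched types with over 20 peaks, 28 of 74 (37.8%, 27.6 to 49.2), an interval that holds 29.4%. MicroRNA genes had 11 daf-2(-)-only peaks of 40, among them mir-229 (height 180, 371 bp upstream, with a WT peak of height 172 at 131 bp), mir-2215 (154), mir-86 (136) and mir-90 (95). A peak assigned to a non-coding gene was so because that TSS was nearest, and coding genes may lie close by.

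Positions relative to the TSS were somewhat wider. The centre lay upstream of the assigned gene model in 1351 daf-2(-)-only peaks (67.0%), within it in 414 (20.5%) and beyond its end in 250 (12.4%), against 67.6%, 20.1% and 12.2% in the other daf-2(-) peaks. Within 0.5 kb upstream of the TSS lay 694 daf-2(-)-only peaks (34.4%, 32.4 to 36.5) and 1847 of the other daf-2(-) peaks (38.1%, 36.8 to 39.5). More than 2.5 kb from the TSS in either direction lay 249 (12.4%, 11 to 13.9) and 449 (9.27%, 8.48 to 10.1). The median distance in either direction was 540 bp for the daf-2(-)-only peaks and 380 bp for the other daf-2(-) peaks. Among peaks of at most the median height of the list, 33.7% of the daf-2(-)-only and 34.4% of the other daf-2(-) peaks lay within 0.5 kb upstream. At a height of 100 or more the gap was wider, at 31.8% and 41.8%, with intervals that overlap. The shares thus differed little among the low peaks, and the part of height in the difference over all peaks was not tested. The farthest upstream was a peak of height 42 that lay 18059 bp from afd-1, and the farthest downstream one of height 32 that lay 22527 bp from exp-2, both named after their values were seen.

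**Figure D5:**
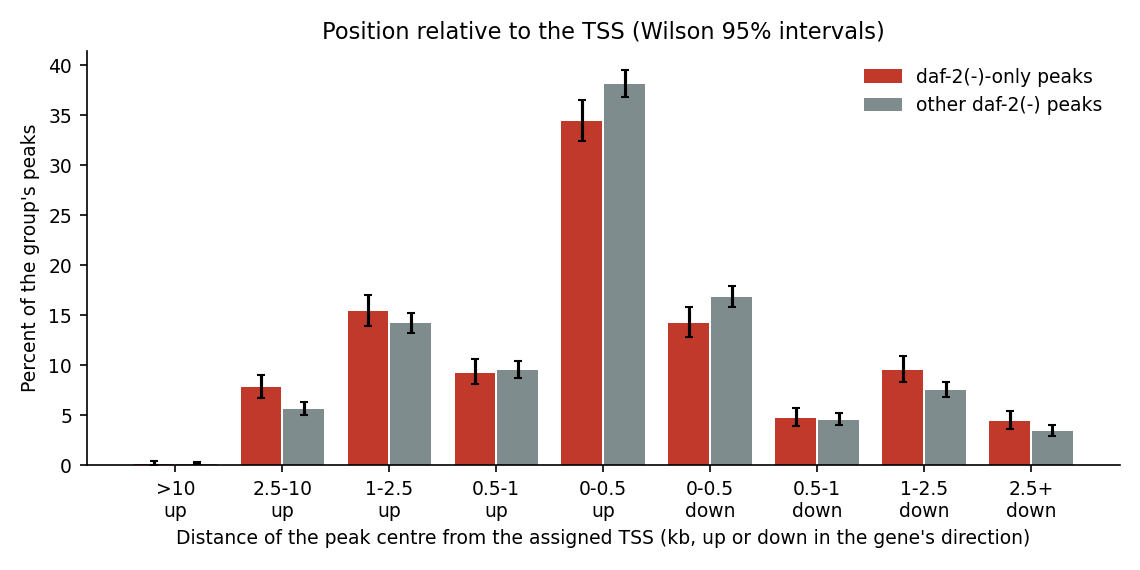
Percent of the daf-2(-)-only peaks and of the other daf-2(-) peaks by distance of the peak centre from the assigned TSS (x axis, kb upstream or downstream; y axis, percent of the group's peaks; bars with Wilson 95% intervals). The bin of 0 to 0.5 kb upstream holds 34.4% of the daf-2(-)-only and 38.1% of the other daf-2(-) peaks, and the bin of 2.5 to 10 kb upstream 7.79% and 5.66%.

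The chromosomes differed little, and the outer parts of the chromosomes differed from their centres. The share of daf-2(-) peaks without a WT partner ranged from 27.5% (25.5 to 29.7, 485 of 1762) on chromosome X to 30.6% (27.9 to 33.5, 315 of 1029) on chromosome II, and chromosome X held 24.1% of the daf-2(-)-only peaks against 26.4% of the other daf-2(-) peaks. With each chromosome divided into 3 equal parts, the outer parts held 62.5% (60.3 to 64.6) of the daf-2(-)-only peaks and 55.8% of the other daf-2(-) peaks. In C. elegans the arms of the autosomes are rich in repeats and recombination, and the centres hold more of the conserved genes. A partner in WT was lacking for 31.8% of daf-2(-) peaks in the outer parts (30.3 to 33.2, 1259 of 3962) and for 26.1% in the central parts (24.5 to 27.7, 756 of 2897). The share was higher in the outer parts on 6 of 6 chromosomes. It was 34.9% (31.1 to 38.9) in the outer parts and 23.9% (20.2 to 28.1) in the centre on chromosome I. On chromosome V it was 32.4% (28.7 to 36.4) and 28.3% (24.8 to 32.2). The intervals of the outer and central parts overlapped on each chromosome other than I.

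The median height of all daf-2(-) peaks was 56 in the outer and 56 in the central parts. Within classes of height, the share without a WT partner in the outer and the central parts was 58.7% and 57.0% below 40, where the intervals overlap, 40.4% (37.8 to 43.0) and 32.5% (29.6 to 35.5) from 40 to 59, and 14.7% (12.7 to 16.9) and 9.29% (7.44 to 11.5) from 60 to 99. At 100 or more it was 10.7% (8.65 to 13.1, 78 of 730) and 5.18% (3.63 to 7.34, 29 of 560). These classes were added after the values were seen.

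By assigned gene, most daf-2(-)-only peaks lay at genes to which no peak of the WT list was assigned. The rule favours this, since it left out each peak that overlapped a WT peak. No share over all genes was computed, so it is no separate result about these peaks. A WT peak assigned to a neighbouring gene could still lie close by. They were assigned to 1851 genes, of which 408 (22.0%) also had a WT peak elsewhere and 1437 (77.6%) had neither a WT peak nor another daf-2(-) peak with a WT partner. In terms of peaks, 483 of 2015 (24%, 22.2 to 25.9) lay at a gene that had a WT peak. Within 0.5 kb upstream of a gene of any type lay 34.4% of all daf-2(-)-only and 38.1% of the other daf-2(-) peaks. Of the 1523 peaks at genes with neither, 418 were centred in that window of a coding gene, at 416 genes. Their heights ran from 23 to 236 with a median of 44.5. The tallest of these were at F20D1.3 (236), T20F7.1 (219), F45D3.4 (188) and cebp-1 (185), followed by lin-66 (142), a gene of developmental timing, and this order was drawn up after the values were seen. A WT peak assigned to another gene lay 66 bp from the peak of F45D3.4, 1226 bp from that of F20D1.3 and 1229 bp from that of cebp-1. For lin-66 and T20F7.1 the nearest WT peak was 8540 and 27594 bp away.

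Most genes had a single daf-2(-)-only peak (1711 of 1851), while 121 had 2, 15 had 3, 3 had 4 and 1 had 5. The gene with 5 was kin-1 (WBGene00002189, chromosome I), the catalytic subunit of protein kinase A, with heights of 26, 39, 44, 54 and 81 over 29.1 kb, beside 3 other daf-2(-) peaks and 2 WT peaks. Those with 4 were daf-16, dep-1, a receptor tyrosine phosphatase gene, with heights from 21 to 33, and tol-1, the Toll receptor gene, with heights from 35 to 51. Genes with 3 and no WT peak included F52G3.1 (36, 43 and 150), Y49G5A.1 (highest 99), pod-2, C48B4.3 and the non-coding Y50D4C.10, and efa-6 had 3 beside 1 WT peak.

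The neighbours of daf-2(-)-only peaks were more often daf-2(-)-only than those of the other daf-2(-) peaks were. The nearest daf-2(-) peak was itself daf-2(-)-only for 702 of the 2015 (34.8%, 32.8 to 36.9) and for 1260 of the 4844 other daf-2(-) peaks (26.0%, 24.8 to 27.3). The longest run along a chromosome without a peak of both strains between them had 7 daf-2(-)-only peaks, on chromosome V from 974950 to 1152435, at Y50D4C.10, nra-4, K10C9.3 and linc-128, with heights from 26 to 152. A run of 5 on chromosome I, from 10761741 to 10772135, took in the peaks of daf-16. These runs were found after the values were seen.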

How the data were processed

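DAF-16 ChIP-seq peak lists of daf-2(-) and WT worms were used, each from 1 ChIP and 1 input library of pooled chromatin. Per the study's methods and the submitters' processing notes, the authors processed reads with CASAVA 1.8.2 and Cutadapt, kept unique alignments from Bowtie 0.12.7 to WS230, called peaks with MACS 1.4.2 against input, and assigned each to the nearest TSS with PeakAnnotator. For each peak the authors deposited the count of tags, the summit height as a pileup signal, the fold enrichment as a ratio over local background and the FDR as a percent. A p-value score of MACS, deposited for daf-2(-) alone, entered no comparison. The deposited lists are pooled over what was sequenced, and library totals were not used here. A deposited table of tag density has 1 value column whose name matches no sample, and it was not used.

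Groups came from the sample labels. Intervals of the lists, inclusive at both ends, were overlapped with a minimum of 1 bp. The gap to a WT peak counts the bases between. The background of a peak is its height divided by its fold enrichment. Distances to the TSS are those deposited, which for 100% of 6859 peaks fell within 1 bp of the value from the centre. The stated length of 1 daf-2(-)-only peak was not that of its interval, and the summit of 1 was outside its interval. Chromosome ends were taken as the last peak end of either list. Gene types came from a RefSeq gene table (WBcel235) by symbol, synonym or sequence name, without its coordinates. Exon and UTR annotation was not used. Shares have Wilson 95% intervals, medians exact order-statistic intervals and tags exact Poisson intervals, all for counting error only, and tags are not known to be independent molecules. No p-value was computed, since each arm had 1 library.

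The members, gene lists and tests were chosen with earlier results of these data known. Named were the 20 tallest peaks, up to 4 by height in each list with 10 or more daf-2(-) peaks, genes named in the study, the 10 genes with most peaks, and 3 peaks on each side of the rule. Others are said to be chosen after their values were seen, or belong to lists with fewer peaks. No promoter sequence or motif was analysed. The overlap step was tested on simulated data made from the 6859 daf-2(-) peaks, and assigned 100% correctly. The simulated peaks lay far apart, and their partners were displaced by less than the length of a peak. The result therefore covers the computation alone, and not close or divided intervals such as those in the deposited lists. Alternatives were other overlap rules, limits, windows and counting by gene. Values were computed in Python 3.11.15 with scipy 1.17.1, pandas 2.3.3 and numpy 2.4.6, and drawn with matplotlib 3.10.9.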

Additional observations from a re-analysis of the deposited data

How the results depend on the processing

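Of 31 alternative values, 22 fell within the 95% interval of the main value and 9 fell outside. The share of daf-2(-) peaks without a WT partner was 40.4% (2770 peaks) when summits had to lie within 100 bp, 25% (1717) with WT peaks widened by 500 bp, 30.8% (2114) against WT peaks with an FDR of 1% or less, which leaves fewer partners, and 8% (165 of 2063) when a fold enrichment of at least 10 was required of the daf-2(-) peak. The rule for partners thus moved the number of peaks from 1717 to 2770. The ratio of median heights was 0.598 with tags per peak. Between 2.5 kb upstream and 300 bp downstream of the TSS lay 71.4% of the daf-2(-)-only and 76.2% of the other daf-2(-) peaks, a wider window by construction. The outer 2 of 5 equal chromosome parts held 33.3% and 27.9%, a smaller part of the chromosome by construction. The share of daf-2(-)-only peaks at a gene with a WT peak was 41.6% with summits within 100 bp, a rule that by construction takes in peaks that overlap a WT peak. Counting any WT peak within 2 kb, whatever its gene, gave 36.3%, a different measure by construction. With WT peaks widened by 500 bp, 36.1% of the daf-2(-)-only and 37.4% of the other daf-2(-) peaks lay within 0.5 kb upstream of the TSS, and with height at most the median 66.4% and 63.8% were assigned to coding genes, the opposite order to the main values. The order was also turned for chromosome X with summits within 100 bp, at 25.9% and 25.6%. Where no construction is named, the cause was not tested. The planned search for a FOXO word in promoter windows was not run, as no promoter sequence was used here. No paired analysis was possible because no group had a replicate. At a median of 76 tags per daf-2(-)-only peak, and with library totals not used here, a site without a WT peak was not detected in that list and is not shown to be unbound.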
